A study of Mus musculus with 6 samples.

Results

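The 10 genes described here are the PEA3 group of ETS transcription factors, Etv1, Etv4 and Etv5, and 7 feedback inhibitors of ERK signalling, namely Spry1, Spry2, Spry4, Spred1, Dusp4, Dusp5 and Dusp6. They were chosen by name as a pathway group, with earlier results of these data known, out of 19938 mouse genes measured. Expression was measured in 6 mouse tumours, 3 relapsed gliomas numbered 1, 2 and 3 and 3 control gliomas numbered 1, 2 and 4, with 1 Affymetrix array per tumour. Each tumour arose from glioma cells carrying a mutant form of EGFR, the epidermal growth factor receptor, as their driver, which had been placed under the flank skin of Nu/Nu mice, a strain that lacks a thymus. The relapsed gliomas had regrown after extinction of the mutant receptor. The labels describe drinking water with or without doxycycline (2 g/L) and collection at 2 cm3, but leave unstated the group given the drug, whether each tumour came from its own animal, how many cell clones were implanted or what drove the receptor.

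EGFR and related receptors act through RAS, RAF and MEK on the kinase ERK. ERK activity raises transcription of the PEA3 factors, in part by relieving repression by Capicua, and of genes that dampen the pathway. Sprouty and Spred proteins act on the path from receptor to RAF, and dual-specificity phosphatases remove the activating phosphates of mitogen-activated protein kinases. These genes are therefore widely used as transcriptional readouts of the pathway. In oligodendrocyte progenitors and in gliomas of that character, Etv1 and Etv5 are among the abundant ETS factors.

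All 10 genes were measured by probe sets with 1 gene symbol, 12 probe sets in all, and the probe set with the highest mean stood for each gene. Values are the deposited log2 intensities. The mean levels of the 10 genes ran from 8.27 to 10.65, all above the median gene level of 7.39 and the median of 5.65 over the probe sets that the annotation lists with no gene. Across all probe sets, Pearson's r was 0.984 to 0.993 between arrays within a group and 0.968 to 0.982 between groups. The mouse Egfr probe set averaged 9.89 ± 0.46 in relapsed and 9.65 ± 0.38 in control gliomas (SD, n = 3 each), and the groups overlapped. The species and form of the mutant receptor are not given, so this does not check its extinction. Of the glioma markers, Olig1 and Olig2, transcription factors of oligodendrocyte progenitors, stood at 7.87 and 7.29 in relapsed gliomas and at 11.39 and 10.84 in control gliomas. Sox10, another factor of that lineage, stood below the median gene level in both groups, at 6.69 in relapsed and 6.82 in control gliomas. Pdgfra and Cspg4, surface markers of the same progenitors, had means of 10.47 and 8.71 in relapsed gliomas and of 9.84 and 8.61 in control gliomas, and neither was called.

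All 3 PEA3 factors and Spry1 were called lower in relapsed gliomas, but only Etv5 kept the call in most refits under other settings. None of the 10 genes was called higher. In limma, fitted to all genes with Benjamini-Hochberg adjustment over them and a call at an adjusted p under 0.05, 4 of the 10 genes were lower, against 5.47% of all genes, and 0 of 10 higher, against 3.69%. At an unadjusted p under 0.05, 6 of the 10 differed, against 26.6% of all genes. In 7 of the 10, every relapsed glioma lay below every control glioma, as in 17.8% of all genes. The median difference of the 10 genes, relapsed minus control, was -0.85 on the log2 scale, and that of all genes was -0.02. The 10 genes lie in the brighter 50% of genes, where calls were more frequent. With only those genes tested, 5 of the 10 were called lower, against 11.7% of genes. The group was chosen with earlier results known, so the shares describe it and do not test it.

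**Figure D1:**
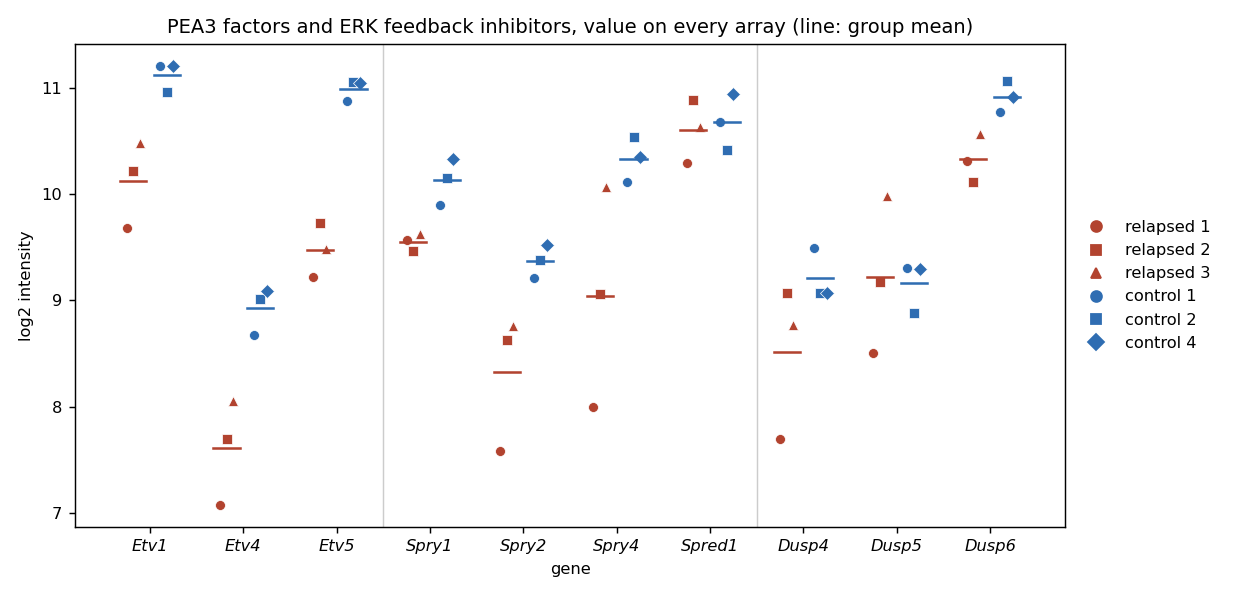
Deposited log2 intensity (y axis) of each of the 10 genes (x axis) on every array, relapsed gliomas in red left of control gliomas in blue, with a marker shape for each tumour number and a line at each group mean. The PEA3 factors separate the groups completely, while Spred1, Dusp4 and Dusp5 overlap or touch.

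The PEA3 factors bind DNA through an ETS domain and act in branching morphogenesis and in growth factor responses. Etv5 had log2 levels of 9.22, 9.73 and 9.49 in relapsed 1, 2 and 3, against 10.88, 11.06 and 11.05 in control 1, 2 and 4. The lowest control glioma was 1.15 above the highest relapsed glioma, the widest such gap among the 10 genes. Etv5 fell by 1.52 ± 0.14 (SE, n = 3 arrays per group), with a 95% interval of -1.87 to -1.16, to 35.0% of the control level (limma adjusted p = 0.0105).

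Etv4 had log2 levels of 7.07, 7.69 and 8.06 in relapsed 1, 2 and 3, against 8.68, 9.02 and 9.09 in control 1, 2 and 4. It was the dimmest of the 10 genes, and its groups did not overlap. Etv4 fell by 1.32 ± 0.27 (SE), to 40.0% of the control level (limma adjusted p = 0.0438). Etv1, also a lineage factor of some neurons and of the interstitial cells of the gut, had log2 levels of 9.69, 10.22 and 10.49 in relapsed 1, 2 and 3, against 11.21, 10.97 and 11.21 in control 1, 2 and 4. It fell by 1.00 ± 0.22 (SE; limma adjusted p = 0.0491).

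Etv1 and Etv5 each had a further probe set. The further probe set of Etv5 read 9.16, 8.72 and 8.76 in relapsed 1, 2 and 3, against 10.46, 11.35 and 10.66 in control 1, 2 and 4, and fell by 1.95 ± 0.27 (SE), with an adjusted p of 0.0278 over all probe sets in limma. Both probe sets of Etv5 thus separated the groups, but they ordered the relapsed gliomas differently, with relapsed 1 lowest on one and highest on the other. The further probe set of Etv1 read 9.28, 9.90 and 10.15 in relapsed 1, 2 and 3, against 10.77, 10.34 and 10.88 in control 1, 2 and 4. It kept the order of the relapsed gliomas seen on the first, with a difference of -0.89 ± 0.27 (SE) and an adjusted p of 0.130 over all probe sets in limma.

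Etv5 was called in 12 of 13 refits under other settings, Etv4 in 5 and Etv1 and Spry1 in 4 each. Etv5 stayed called with any 1 array left out except control 4 (limma adjusted p = 0.0503), with differences of -1.64 to -1.39. Etv1, Etv4 and Spry1 each lost the call whichever array was left out, with differences of -1.18 to -0.78, -1.54 to -1.05 and -0.69 to -0.48 and limma adjusted p of 0.0531 to 0.149, 0.0558 to 0.139 and 0.0503 to 0.133. They also missed it with all 35556 probe sets tested together, with adjusted p of 0.0671 for Etv1, 0.0602 for Etv4 and 0.0651 for Spry1 in limma. Etv1 missed it too with the mean of its probe sets (0.0698), and Spry1 with a trended, robust variance (0.0571).

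**Figure D2:**
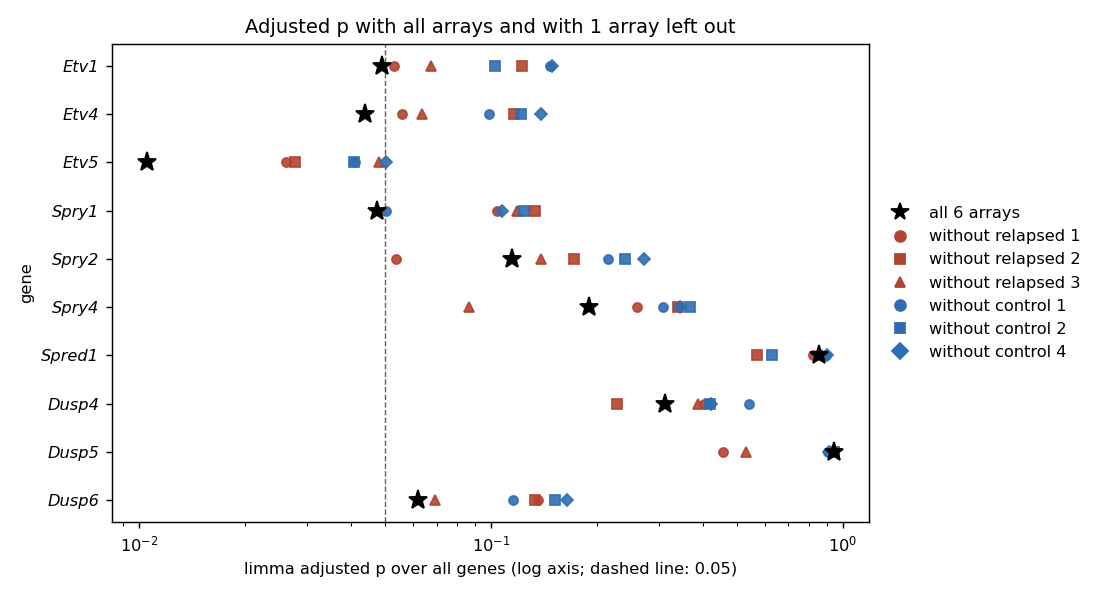
Limma adjusted p (x axis, log scale) of each of the 10 genes (y axis), as a star with all 6 arrays and as coloured markers with 1 array left out (red for a relapsed glioma, blue for a control glioma). Etv5 alone stays left of the dashed line at 0.05 in all but 1 of these fits.

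The RefSeq promoter table (GRCm38.p6) held 9 entries for 7 of the 10 genes, and Etv4, Spry4 and Dusp4 were not matched. The 250 bases before each start were searched on both strands for CCGGAAGT (an ETS site), TGAATGAA and TGAATGGA (Capicua octamers) and TGACGTCA (the CREB site). None of these letters occurred in the 9 entries. They occurred in 2.88%, 1.08%, 1.01% and 1.55% of all 32851 promoters. The 6 letters TGAATG, which both octamers contain, were searched after the sequences had been seen. They occurred in 10.9% of all promoters, and 3 or more times in 0.131%. Of the 2 Etv5 starts, the second had them 3 times and the first had none, and the sequences are shown because Etv5 had the smallest p of the 10 genes. They run 5′ to 3′, and capitals mark TGAATG or its reverse complement.
Etv5 first start, chr16:22439571-22439820, minus strand: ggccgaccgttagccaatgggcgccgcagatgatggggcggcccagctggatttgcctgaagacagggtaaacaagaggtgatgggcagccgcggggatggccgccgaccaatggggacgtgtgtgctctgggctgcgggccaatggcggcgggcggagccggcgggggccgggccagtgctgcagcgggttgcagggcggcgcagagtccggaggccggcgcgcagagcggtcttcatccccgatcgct
Etv5 second start, chr16:22438369-22438618, minus strand: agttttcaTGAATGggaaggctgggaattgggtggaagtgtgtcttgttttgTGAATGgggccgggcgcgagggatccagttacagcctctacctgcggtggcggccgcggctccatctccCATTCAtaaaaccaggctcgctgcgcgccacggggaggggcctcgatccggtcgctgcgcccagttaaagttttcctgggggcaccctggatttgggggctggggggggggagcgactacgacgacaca

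Sprouty proteins are induced by receptor signalling and limit ERK activation below the receptor. Spry1 had log2 levels of 9.57, 9.47 and 9.63 in relapsed 1, 2 and 3, against 9.90, 10.16 and 10.33 in control 1, 2 and 4. The relapsed gliomas lay within 0.16 of each other, the narrowest relapsed range of the 10 genes. Spry1 fell by 0.58 ± 0.12 (SE), to 67.0% of the control level (limma adjusted p = 0.0473).

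Spry2 had log2 levels of 7.58, 8.63 and 8.76 in relapsed 1, 2 and 3, against 9.21, 9.38 and 9.52 in control 1, 2 and 4. Its groups did not overlap, but relapsed 1 lay more than 1 log2 unit below the other relapsed gliomas. The difference was -1.05 ± 0.33 (SE; limma adjusted p = 0.115), or -0.68 without relapsed 1 (0.0536).

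Spry4, the Sprouty gene with the widest spread here, had log2 levels of 8.0, 9.06 and 10.07 in relapsed 1, 2 and 3, against 10.12, 10.54 and 10.35 in control 1, 2 and 4. Relapsed 3 came within 0.048 of the lowest control glioma. The difference was -1.30 ± 0.52 (SE; 95% interval -2.60 to 0.01; limma adjusted p = 0.190). It was -0.77 without relapsed 1 (0.260) and -1.81 without relapsed 3 (0.0864).

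Spred1, a Sprouty-related inhibitor that acts with neurofibromin on RAS, had log2 levels of 10.29, 10.89 and 10.64 in relapsed 1, 2 and 3, against 10.68, 10.42 and 10.95 in control 1, 2 and 4. The groups overlapped. The difference was -0.07 ± 0.20 (SE; 95% interval -0.58 to 0.43; limma adjusted p = 0.854), and it was 0.08 without relapsed 1 and 0.06 without control 4.

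None of the 3 phosphatases passed the test, and differences between them were not tested. Dusp6, the cytoplasmic phosphatase that acts mainly on ERK, had log2 levels of 10.31, 10.11 and 10.57 in relapsed 1, 2 and 3, against 10.78, 11.07 and 10.91 in control 1, 2 and 4. Its groups did not overlap, and its difference was -0.59 ± 0.14 (SE), with a 95% interval of -0.94 to -0.24. The adjusted p of 0.0620 in limma lay close to the threshold. It passed with the dimmer 50% of genes left out (0.0387), with quantile normalization (0.0441) and with median centring (0.0417), and reached 0.164 with 1 array left out.

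Dusp4, a nuclear phosphatase of ERK and related kinases, had log2 levels of 7.70, 9.07 and 8.77 in relapsed 1, 2 and 3, against 9.49, 9.07 and 9.07 in control 1, 2 and 4. Relapsed 2, control 2 and control 4 had the same value to 4 decimals. Such equal values were common in the deposited table, with at least 3 arrays equal in 4050 genes, and their origin was not tested. The difference of Dusp4 was -0.70 ± 0.38 (SE; limma adjusted p = 0.313) and -0.29 without relapsed 1 (0.403).

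Dusp5, a nuclear phosphatase specific for ERK, had log2 levels of 8.5, 9.17 and 9.98 in relapsed 1, 2 and 3, against 9.31, 8.88 and 9.30 in control 1, 2 and 4. The relapsed gliomas held both the lowest and the highest of the 6 values. The difference was 0.06 ± 0.39 (SE; 95% interval -0.91 to 1.02; limma adjusted p = 0.947). It was 0.42 without relapsed 1, -0.32 without relapsed 3 and -0.08 without control 2, and turned to -0.02 with median centring.

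**Figure D3:**
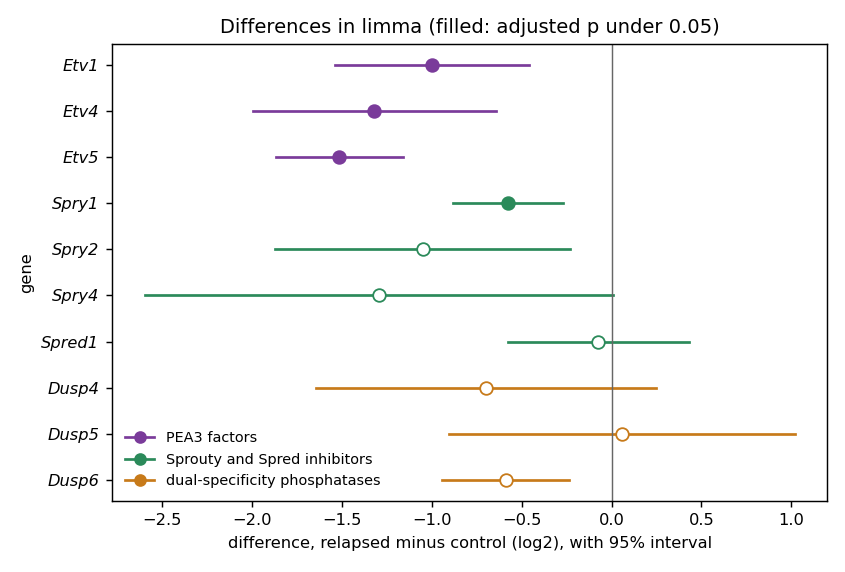
Difference between relapsed and control gliomas (x axis, log2) with its 95% interval for each of the 10 genes (y axis), coloured by family, filled where the limma adjusted p was under 0.05. The intervals of Spry4, Spred1, Dusp4 and Dusp5 include 0, and that of Dusp5 runs from -0.91 to 1.02.

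The upstream sequences of Dusp6 and Dusp5 are shown as those of the 2 phosphatases on the list with a promoter entry. Besides TGAATG, found once in each, they were searched for the CArG box, the binding site of serum response factor, again after the sequences had been seen. Dusp5 had 2 adjacent boxes, and Dusp6 had none. Of all 32851 promoters, 1.47% had at least 1 box and 0.0183% at least 2. Both sequences run 5′ to 3′, and capitals mark TGAATG or its reverse complement and, in Dusp5, the longer run of adjacent CArG boxes.
Dusp5, chr19:53528895-53529144, plus strand: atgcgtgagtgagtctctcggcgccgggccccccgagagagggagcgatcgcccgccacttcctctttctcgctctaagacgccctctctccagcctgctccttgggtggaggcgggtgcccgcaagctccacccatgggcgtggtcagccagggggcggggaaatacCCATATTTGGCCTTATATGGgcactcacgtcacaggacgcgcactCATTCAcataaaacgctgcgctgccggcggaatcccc
Dusp6, chr10:99262981-99263230, plus strand: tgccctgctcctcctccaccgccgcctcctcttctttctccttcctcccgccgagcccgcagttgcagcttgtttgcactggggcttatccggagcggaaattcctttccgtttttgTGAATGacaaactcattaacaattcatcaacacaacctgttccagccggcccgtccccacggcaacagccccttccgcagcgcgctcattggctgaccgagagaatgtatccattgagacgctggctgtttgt

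The relapsed gliomas were not alike for these genes. Relapsed 1 was the lowest of the relapsed gliomas in 8 of the 10 genes, as in 44.7% of all genes, and relapsed 3 the highest in 7 of the 10, as in 35.2% of all genes. The exceptions to relapsed 1 being lowest were Spry1 and Dusp6, on the probe set that stood for each gene. On the further probe set of Etv5, relapsed 1 was the highest of the relapsed gliomas. The standard deviation was larger among the relapsed than among the control gliomas in 9 of the 10 genes, as in 54.1% of all genes. The median standard deviation of the 10 genes was 0.45 in relapsed and 0.21 in control gliomas, against 0.13 and 0.12 over all genes. The all-gene values include the dimmer 50% of genes, where none of the 10 lies, and genes of like brightness were not compared. Set against the control mean, Etv5 was lower by similar amounts in the relapsed gliomas, at -1.77, -1.27 and -1.51 in relapsed 1, 2 and 3. Spry4 was at -2.34, -1.28 and -0.27 in the same tumours. The adipocyte markers, 6 of 7 measured, had a mean log2 level of 10.02 in relapsed 1, against 6.42 and 6.92 in relapsed 2 and 3 and 6.54 to 7.01 in control gliomas. The keratinocyte markers averaged 7.29 in relapsed 3, against 5.43 and 5.60 in the other relapsed gliomas and 5.60 to 5.67 in control gliomas. The skeletal muscle markers averaged 9.66 in control 2, against 7.24 to 7.76 in relapsed gliomas and 7.13 and 7.32 in the other control gliomas. The part of these tissues in the values was not tested.

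Macrophage and fibroblast markers were mostly higher in relapsed gliomas, and oligodendrocyte progenitor and proneural markers mostly lower. Macrophage markers averaged 10.37 to 10.80 in relapsed and 8.90 to 9.15 in control gliomas, with 11 of 12 genes called higher. Fibroblast markers averaged 10.63 to 11.42 in relapsed and 9.09 to 9.63 in control gliomas, with 8 of 10 called higher. Oligodendrocyte progenitor and proneural markers averaged 7.75 to 7.82 in relapsed and 9.10 to 9.67 in control gliomas, with 6 of 10 called lower. Endothelial markers averaged 8.02 to 8.29 in relapsed and 8.33 to 8.54 in control gliomas, and those of NK and lymphoid cells 5.29 to 5.91 and 5.14 to 5.40, with none of 8 called in either list. In these bulk tumours, fewer cells that express a gene and less of its RNA per cell cannot be told apart, and the part of the cell mixture in the falls of the PEA3 factors and Spry1 was not tested.

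The calls in the other lists of the pathway are to be read against the 5.47% of all genes called lower and the 3.69% called higher. Among 17 measured other inhibitors of the pathway, 2 fell and 1 rose, with a median difference of -0.19, against -0.02 over all genes. Spred3, the third Spred gene, fell by 1.12 ± 0.22 (SE; limma adjusted p = 0.0407). Lrig1, which lowers EGFR family receptors at the cell surface, fell by 0.85 ± 0.16 (SE; limma adjusted p = 0.0352). Rasa1, a GTPase-activating protein that switches off RAS, rose by 1.11 ± 0.14 (SE), or 2.16-fold (limma adjusted p = 0.0174). Among 11 other dual-specificity phosphatases, 1 fell and none rose, with a median of -0.13. The gene that fell was Dusp14, at -0.70 ± 0.15 (SE; limma adjusted p = 0.0473). With each array left out in turn, Rasa1 kept its call in 2 of 6 fits (without relapsed 1 and without control 2) and Spred3 in 1 (without relapsed 1), while Lrig1 and Dusp14 lost it in all 6, with limma adjusted p of 0.0505 to 0.113 and 0.0782 to 0.142.

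No gene was called among 15 measured members of the RAS-ERK cascade itself, whose median difference was 0.04. With 5.47% of all genes called lower and 3.69% higher, 0 of 15 does not show an unchanged cascade. Its smallest p-values were those of Gab2 and Shc1, adaptors between receptors and RAS, at -0.42 ± 0.13 and 0.35 ± 0.12 (SE), with limma adjusted p of 0.113 and 0.133. Of 21 measured other ETS factors, 1 fell and 2 rose, with a median of 0.07. Erf, an ETS repressor that ERK inactivates by phosphorylation, fell by 0.42 ± 0.07 (SE), and Elf1 and Elf4, factors of blood cell lineages, rose by 0.56 ± 0.11 and 0.56 ± 0.12 (SE), with limma adjusted p of 0.0313, 0.0426 and 0.0451. Among 21 other genes downstream of ERK, 2 fell and none rose, and the median was -0.41. In 18 of them the mean was lower in relapsed gliomas, against 54.8% of all genes. The list was not split by whether ERK raises or lowers each gene. Vgf, a secreted neuropeptide precursor, fell by 1.15 ± 0.21 and Phlda1 by 1.03 ± 0.18 (SE), with limma adjusted p of 0.0357 and 0.0304. With each array left out in turn, Erf and Elf4 lost the call in all 6 fits, and Elf1, Vgf and Phlda1 kept it in 1 each (without control 4, control 1 and relapsed 1), with limma adjusted p up to 0.103, 0.128, 0.129, 0.109 and 0.103 for Erf, Elf4, Elf1, Vgf and Phlda1.

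**Figure D4:**
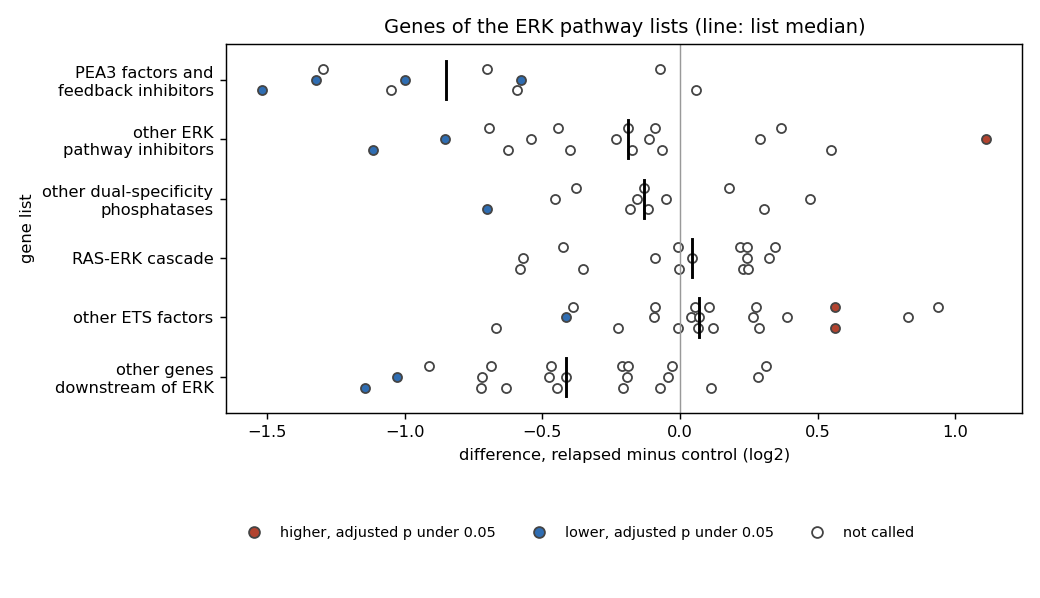
Difference between relapsed and control gliomas (x axis, log2) of each gene in the 10-gene group and in 5 other lists of the pathway (y axis), with a line at each list's median. Filled points passed the test (blue lower, red higher), and the medians run from -0.85 for the 10 genes to 0.07 for other ETS factors.

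Genes with the closest profile over the 6 arrays were sought for Etv5 and Dusp6, by the root mean square distance between log2 values after each gene's mean was removed. Nearest to Etv5 were Notch1 at 0.074, Pcdhb3 at 0.099, Pnmal2 at 0.11, Phlpp1 at 0.12 and Golm1 at 0.13. Notch1, a receptor of neural progenitors, had log2 levels of 9.66, 9.96 and 9.79 in relapsed 1, 2 and 3, against 11.13, 11.35 and 11.27 in control 1, 2 and 4. Nearest to Dusp6 were Zfp687 at 0.058, Ece1 at 0.067, Nfrkb at 0.070, Ptn at 0.075 and Lrrc1 at 0.080. The distances rest on 6 arrays in 2 groups and on the highest-mean probe set of each gene. The further probe set of Etv5, which ordered the relapsed gliomas differently, was not used.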

How the data were processed

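The authors deposited a table of log2 intensities, normalized between arrays. That scale was inferred from values of 1.93 to 14.2 and array medians of 6.58 to 6.68. Per the submitters' processing notes the affy package was used; how it corrected background, normalized and summarized probes is not given in the sources used here. Of 35556 probe sets, 21789 had 1 gene symbol in the platform annotation and 1621 several. Without further scaling or filtering, 19938 genes (highest-mean probe set) entered lmFit and eBayes of limma 3.58.1 in R 4.3.3, with the group as the only term (4 residual and 1.53 prior degrees of freedom). The fit was tested on simulated data. P-values were two-sided, adjusted by Benjamini-Hochberg over all genes. SE are limma's, SD are over 3 arrays, and precision is limited by the number of arrays. The p-values measure only the spread between these samples, which may be technical. An exact permutation of 3 against 3 arrays cannot go below 0.1 and was not used.

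The 10 genes, the lists (85 of 96 pathway entries and 69 of 72 cell marker entries measured) and the tests were chosen with earlier results of these data known. Named were the 10 genes, up to 4 called genes of each pathway list with the largest change (otherwise the 2 with the smallest p) and the 5 nearest profiles to Etv5 and Dusp6. Egfr, Olig1, Olig2, Sox10, Pdgfra and Cspg4 were added to check the labels after their values were seen. Alternatives were a filter on dim genes, quantile normalization, median centring, the mean of probe sets, all probe sets, a trended robust variance, the tumour number as a block and leaving out each array.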

Additional observations from a re-analysis of the deposited data

How the results depend on the processing

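The number of the 10 genes called lower stayed within 1.5 times the main count of 4 with dim genes left out, quantile normalization, median centring, the mean of probe sets and a trended robust variance (3 to 5 genes). In those settings 4.47% to 11.7% of the genes tested were called lower. The count was 1 with all probe sets tested, against 2.42% of probe sets called lower. It was 0 to 1 with 1 array left out, against 0.722% to 2.98% of genes. None of the 10 was called higher in any fit. Over all genes, 1826 were called, and 264 to 975 with 1 array left out; fits without an array have 3 residual degrees of freedom. Of all calls 59.7% were lower, against 70.8% with median centring. The labels do not say whether a tumour number shared by the groups links the tumours. Deviations from the group means correlated at -0.34 between the tumours numbered 1 and at -0.25 between those numbered 2. Each deviation is from a mean of 3 arrays, so these values cannot settle whether the tumours are paired. With the tumour number as a replicate block, 1130 genes were called, and 3.39% of all genes were called lower. Of the 10, 1 was called lower, Etv5, with a difference of -1.52 (adjusted p = 0.0203 in limma). Only Spred1 and Dusp5 changed sign. With 1 array left out, Spred1 ranged from -0.216 to 0.0841 and Dusp5 from -0.32 to 0.42, and Dusp5 was -0.0175 with median centring. The cause of these shifts was not tested.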
